A study of Mus musculus with 3 samples.

Results

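The signal recognition particle (SRP), the Sec61 channel and the signal peptidase complex act in turn on proteins that enter the secretory pathway, and 10 of their genes are described here out of 20805 genes that have a 5′ UTR, a coding sequence (CDS) and a 3′ UTR in the deposited tables. They are the signal peptidase genes Spcs1, Spcs2, Spcs3, Sec11a and Sec11c, the SRP genes Srp19, Srp68 and Srp72, and the Sec61 genes Sec61a1 and Sec61b. The genes were taken by symbol, and all 10 were found through the transcript identifiers of the mm10 annotation. They were picked as a group on the CDS counts of these libraries, in which Spcs1 (Harr against Chx) and Srp19 (Chx against WT) stood out, so every comparison is given as a description.

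The data are ribosome profiling libraries, in which the mRNA fragments protected by ribosomes are sequenced, from primary cortical neurons of the mouse. The Chx library comes from neurons given cycloheximide, a drug that stops elongation, for 2 min. For the Harr library, harringtonine was given for 2 min before a pulse of cycloheximide; it holds new ribosomes at start codons while those farther along run off. WT neurons received no drug before harvest. Every library was pooled from 3 dishes, and cycloheximide at 100 μg per ml was present in the buffers of all 3 libraries. There is 1 library per treatment, so no difference between treatments has a replicate check, no test was possible, and the errors given below cover counting only.

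SRP is an RNA-protein particle that binds the signal sequence of a nascent chain as it leaves the ribosome and brings the ribosome to its receptor on the endoplasmic reticulum. The chain is then threaded through the Sec61 channel, and signal peptidase cuts the signal sequence off on the luminal side. In neurons this route serves receptors, channels, adhesion molecules and secreted peptides.

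Reads are placed by their 5′ ends, so a ribosome at a start codon leaves its read a few bases before that codon, within the annotated 5′ UTR. The start codons on which the results turn are shown with the 15 bases before the codon and the 15 that begin with it, from the GENCODE M21 transcripts (mm10), 5′ to 3′ along the mRNA, with the start codon in capitals. Spcs1 has an upstream annotated start (chr14:31001403-31001432, minus strand) and a downstream one (chr14:31001226-31001255). Spcs2 (chr7:99858863-99858892, minus strand) and Srp68 (chr11:116274092-116274121, minus strand) are shown for comparison, because nearly all of their 5′ UTR reads lay right before these codons.
Spcs1 upstream start: gtacctcccttgtcgATGgcgcggggcggg
Spcs1 downstream start: cggtcttcagcaaccATGctggaacacctg
Spcs2 start: acggagggagacaagATGgcagcgtcggcg
Srp68 start: cggctcaggggcaagATGgctgctgagaag
The searched features were ANNATG or GNNATG, that is, a purine 3 bases before the start codon, and ATGG, a G right after it. A purine at that place was found in 84.1% of 20277 longest transcripts and ATGG in 49.1%. The upstream Spcs1 start had ATGG without the purine, the downstream start had the purine without ATGG, and those of Spcs2 and Srp68 had both, as did 40.9% of all longest transcripts.

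The Chx library had 35722483 aligned reads, Harr had 9754412 and WT had 30219197, of which 20195221, 3771674 and 16656422 fell in the CDS of the longest transcripts. The 10 genes together received 19303, 4616 and 16473 CDS reads, or 956, 1224 and 989 per 1000000 CDS reads (RPM). All 8 neuronal markers looked at were detected in each library and summed to between 8341 and 10398 RPM. Markers of astrocytes summed to between 204 and 386, those of fibroblasts and vessels to between 39.5 and 49.7, those of oligodendrocytes to between 5.57 and 11.5 with Mog and Mobp at 0 throughout, and those of microglia to between 1.33 and 2.87.

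Per length of CDS, the Sec61 genes were read most densely in WT and Chx. For this comparison the transcript with the most reads was used, and a level is given as CDS reads per kilobase per 1000000 CDS reads with an exact Poisson 95% interval. In WT the order was Sec61b, Sec61a1, Spcs1, Spcs2, Sec11a, Srp19, Srp68, Srp72, Sec11c and Spcs3. Sec61b, the small tail-anchored β subunit of the channel, had a level of 336 (320 to 353) in WT, 267 in Chx and 133 in Harr. Sec61a1, the pore-forming α subunit, had 226 (219.6 to 232), 237 and 196. In the same order of libraries, Spcs1 was at 178, 170.3 and 958 and Spcs2 at 176, 141 and 70.6, so that the genes were level in WT and far apart in Harr. The Harr level of Spcs1 depends on the start codon of the CDS: on its shortest coding CDS, described further on, the levels were 167 (WT), 129 (Chx) and 191 (Harr, 167.1 to 218), and the Harr level no longer exceeded that of Sec61a1. The catalytic subunits Sec11a and Sec11c were at 98.9, 90.7 and 58.4 and at 61.1, 74.8 and 24.96, and Spcs3, a glycosylated subunit, at 60.2, 65.7 and 33.9. The SRP proteins Srp19, Srp68 and Srp72 lay between 62.0 and 72.4 in WT, between 57.3 and 85.4 in Chx and between 69.5 and 89.95 in Harr. Neighbours in this order had overlapping intervals in 5 of the 9 pairs. In bulk libraries such levels cannot tell more cells from more RNA per cell, nor more mRNA from more ribosomes per mRNA.

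**Figure D1:**
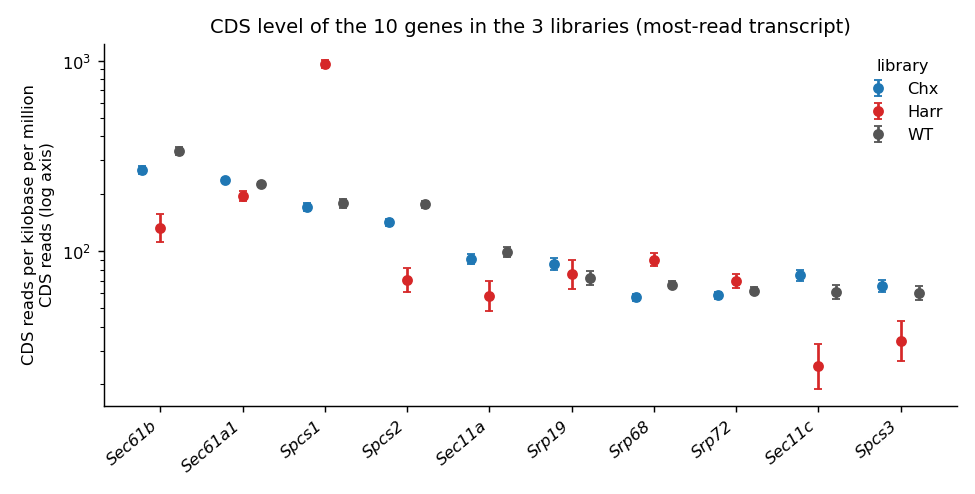
CDS level of each gene on its most-read transcript, in CDS reads per kilobase per 1000000 CDS reads on a log axis, with exact Poisson 95% intervals; 1 point per library. Spcs1 in Harr, at 958 on this transcript (191 on its shortest coding CDS, not drawn), stands above the other points, and the Harr points of Sec61b, Sec61a1, Spcs2, Sec11a, Sec11c and Spcs3 lie below those of the other libraries.

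Subunits of one complex were compared by the ratio of their CDS densities. Srp68 and Srp72, which bind each other in the SRP, had a ratio of 1.07 in WT (counting interval 1.01 to 1.14) and 0.978 in Chx (0.923 to 1.04). The signal peptidase catalytic subunits Sec11a and Sec11c, which occupy alternative forms of the complex, together had 0.910 times the density of Spcs2 in WT (0.851 to 0.973) and 1.17 times in Chx (1.10 to 1.25). Spcs3 was read less densely, at 0.342 times Spcs2 in WT (0.312 to 0.376) and 0.465 times in Chx (0.427 to 0.506). Sec61b had 1.49 times the density of Sec61a1 in WT (1.41 to 1.58) and 1.12 times in Chx (1.06 to 1.19). In Harr the order turned, with a ratio of 0.678 (0.571 to 0.806). Over all genes, the median log2 Harr to Chx ratio of CDS reads was −0.68 under 600 nt of CDS and −0.07 for 1200 to 2000 nt. The CDS of Sec61b has 291 nt and that of Sec61a1 1431 nt, and the part of CDS length was not tested. Other ratios in Harr were 1.295 (1.15 to 1.45) for Srp68 to Srp72 and 1.18 (0.959 to 1.45) for Sec11a and Sec11c to Spcs2. For Spcs3 to Spcs2 it was 0.480 (0.364 to 0.632). Srp19 had 1.09 times the density of Srp68 in WT, 1.49 times in Chx and 0.839 times in Harr. Spcs1 on its shortest coding CDS had 0.945 times the density of Spcs2 in WT, 0.906 times in Chx and 2.69 times in Harr. Both Sec61b and Spcs2 share sequence with other annotated genes. Of the 25-base words in the Sec61b CDS, 82.1% also occur in transcripts of other genes, most of them in Gm10320, and 45.1% of those in the Spcs2 CDS occur in the pseudogene Spcs2-ps. Reads of these stretches cannot be assigned with certainty, and how reads with several matches were handled for these tables was not established. Srp19 shares 17.1% (17.5% on its most-read transcript). The 7 other genes share at most 0.552% on the longest transcript, and Spcs1 shares 5.76% on its most-read one.

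The share of reads in the 5′ UTR was higher after harringtonine in 9 of the 10 genes. The change is given as the log2 odds ratio of 5′ UTR to CDS reads between 2 libraries on the longest transcript, with 0.5 added to each count, for genes with 10 reads or more per region over the pair, and ± is the standard error from counts. Between Harr and Chx it was at least 1 in 9 of the 10 genes, against 92.1% of 10713 genes, with medians of 2.93 for the 10 and 2.46 for all genes. Between Harr and WT it was at least 1 in 8 of the 9 genes with enough reads, against 96% of 10302 genes. The count was thus near that of all genes in both comparisons, and the exception was Spcs1. The CDS count of Spcs1 in Harr, on which the group was picked, is the denominator of this ratio. Its low value is therefore not separate from that choice. On its shortest coding CDS, described further on, Spcs1 was above 1.

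Among the signal peptidase genes other than Spcs1 the change was of similar size. Spcs2, a non-catalytic subunit, had 62 (Chx), 73 (Harr) and 24 (WT) reads in its 100-nt 5′ UTR and 1961, 183 and 2011 in its CDS. Its 5′ UTR share was 3.06%, 26.9% and 1.17%, so that Harr exceeded Chx by 3.65 ± 0.27 on the log2 scale, or 12.6-fold. Of its 5′ UTR reads, 61, 73 and 24 lay within the 22 nt just before the start codon shown above, and 1 read, in Chx, lay farther upstream. Sec11a had 163, 271 and 98 5′ UTR reads against 998, 120 and 897 in the CDS, with a log2 odds ratio of 3.78 ± 0.20, and most of them (139, 219 and 91) fell in the last 59 nt of a 328-nt 5′ UTR. Sec11c had 106, 72 and 35 against 882, 55 and 594, with 3.44 ± 0.30. Spcs3 had 57, 53 and 18 against 727, 70 and 549, with 3.26 ± 0.33. In each of these 4 genes Harr held fewer CDS reads than either other library, while its 5′ UTR reads exceeded those of WT. These are raw counts, and all genes together showed the same. Over all genes the CDS held 20195221 (Chx), 3771674 (Harr) and 16656422 (WT) reads. The 5′ UTR held 2028174 in Harr against 1115523 in WT.

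Between Harr and Chx the SRP genes lay lower on this measure. Srp68 had 55, 49 and 22 5′ UTR reads, all within 29 nt of its start codon, against 2193, 643 and 2096 in the CDS, and Harr was 1.60 ± 0.29 above Chx. Srp72 had only 9, 6 and 3 reads in a 41-nt 5′ UTR against 2408, 533 and 2098 in the CDS, with 1.63 ± 0.74 (95% counting interval 0.18 to 3.07). Srp19, the subunit that helps assemble the particle on its RNA, had 1.40 ± 0.28 on its longest transcript, whose CDS of 123 nt is annotated as a target of nonsense-mediated decay, and 1.81 ± 0.20 on its most-read one. On the longest transcripts these values lay at percentiles 20.1, 20.7 and 15.1 of all genes. Against WT, Srp68 was at 2.84 ± 0.37 (percentile 37.9) and Srp19 at 2.51 ± 0.38 (percentile 28.8), but Srp19 on its most-read transcript was at 4.00 ± 0.30 (percentile 72.3), so it did not lie low there. The CDS of Srp68 and Srp72 is long, and among genes of their CDS length classes (1200 to 2000 and 2000 to 4000 nt) the percentiles were 16.9 and 32.3.

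The Sec61 genes lay farther apart against Chx than against WT. Sec61b had 90, 152 and 65 5′ UTR reads against 1582, 147 and 1644 in the CDS, and Harr was 4.18 ± 0.23 above Chx, the highest of the 10 genes in that comparison. Sec61a1 had 113, 105 and 33 against 6922, 1066 and 5422, with 2.59 ± 0.20, near the median of all genes. Against WT they were at 4.70 ± 0.25 (percentile 87.6) and 4.00 ± 0.29 (percentile 72.3), and Spcs2 was the highest of the 10 at 5.04 ± 0.35. The first CDS segment of Sec61b holds 3 nt and that of Sec61a1 7 nt, so an intron follows the start codon closely in both.

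**Figure D2:**
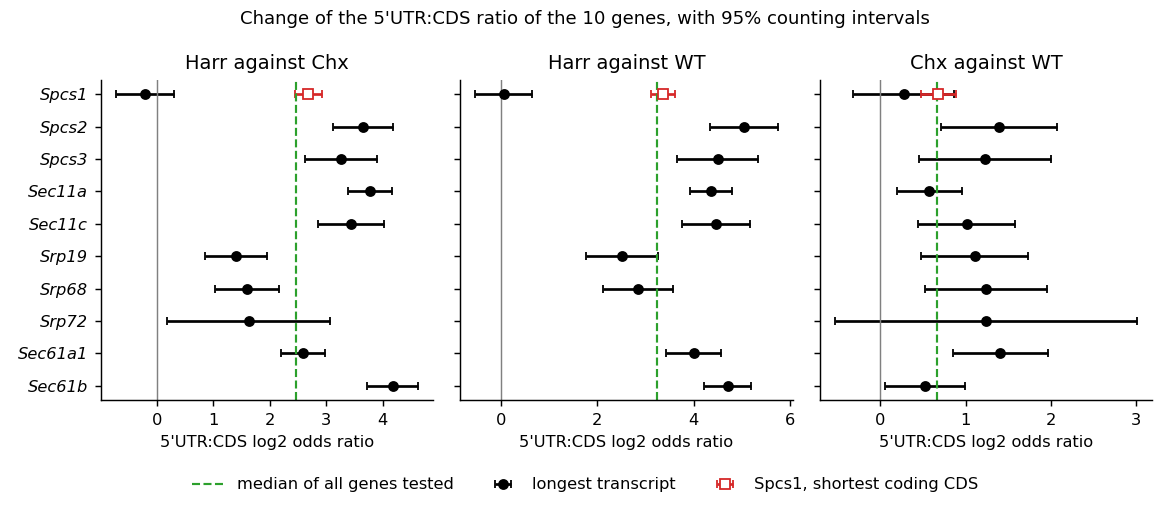
Log2 odds ratio of 5′ UTR to CDS reads for each gene (filled points, longest transcript) in 3 comparisons of libraries, with 95% counting intervals; the dashed line is the median of all genes tested and the open square is Spcs1 on its shortest coding CDS. Against Chx, Spcs1 on its longest transcript is at −0.21 and on the shortest coding CDS at 2.69, and the other 9 genes lie between 1.40 and 4.18. Srp72 had too few 5′ UTR reads for the comparison of Harr with WT.

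Cycloheximide alone also went with a higher 5′ UTR:CDS ratio than no drug. Between Chx and WT the log2 odds ratio was at least 1 in 7 of the 10 genes, against 34.7% of 10419 genes, with medians of 1.17 and 0.67. All 10 values were above 0, as were 80.8% of all genes. On the longest transcripts they ran from 0.27 ± 0.30 in Spcs1 to 1.41 ± 0.28 in Sec61a1. On the most-read transcripts Srp19 was highest, at 2.19. The interval of Spcs1 and that of Srp72 (1.24 ± 0.90) included 0. These comparisons share libraries, so the values of the 3 comparisons are not independent of one another.

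In Harr, nearly all CDS reads of Spcs1 on its longest and most-read transcripts lay in its first exon. On the longest transcript (ENSMUST00000228767.1; 255-nt 5′ UTR, 327-nt CDS) it had 60, 64 and 38 5′ UTR reads and 1421, 1753 and 1094 CDS reads. Harr thus held more CDS reads than Chx or WT in a far shallower library. The CDS level was 2.72 ± 0.05 higher in Harr than in Chx on the log2 scale, or 6.61-fold, and 2.82 ± 0.06 higher than in WT, or 7.08-fold. The first of its 3 CDS segments (chromosome 14, 31001205 to 31001417, minus strand; 213 nt) held 1046 (Chx), 1723 (Harr) and 721 (WT) of these reads. That was 73.6%, 98.3% and 65.9%, where the segment makes up 65.1% of the CDS. On the most-read transcript, whose CDS runs farther, it held 62.0% (Chx), 97.2% (Harr) and 49.6% (WT) of the CDS reads. Without this segment the ratio of Harr to Chx turned to −1.19.

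The annotated transcripts of Spcs1 overlap in this exon with different ends, and differencing their counts places the reads more finely. These intervals were chosen after the values were seen. A window of 110 nt (31001241 to 31001350) held 863 (Chx), 1538 (Harr) and 575 (WT) reads, which is 60.7%, 87.7% and 52.6% of the CDS reads of the longest transcript. The window ends right before the downstream start codon shown above, which lies 177 nt after the upstream one in the same reading frame with no stop codon between. Before the upstream start codon, the 255 nt of 5′ UTR held 60, 64 and 38 reads, and between it and the window 67 nt held 17, 12 and 16. The density in the window was 0.388 (Chx), 3.71 (Harr) and 0.314 (WT) reads per nt per 1000000 CDS reads, against 0.0117, 0.0665 and 0.00895 in the 5′ UTR before the upstream start. After the downstream start codon the exon's last 36 nt held 166, 173 and 130 reads. The later CDS exons held 640, 50 and 732. Harr was thus 3.25 ± 0.06 higher than Chx in the window on the log2 scale and 1.24 ± 0.21 lower in the later exons.

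**Figure D3:**
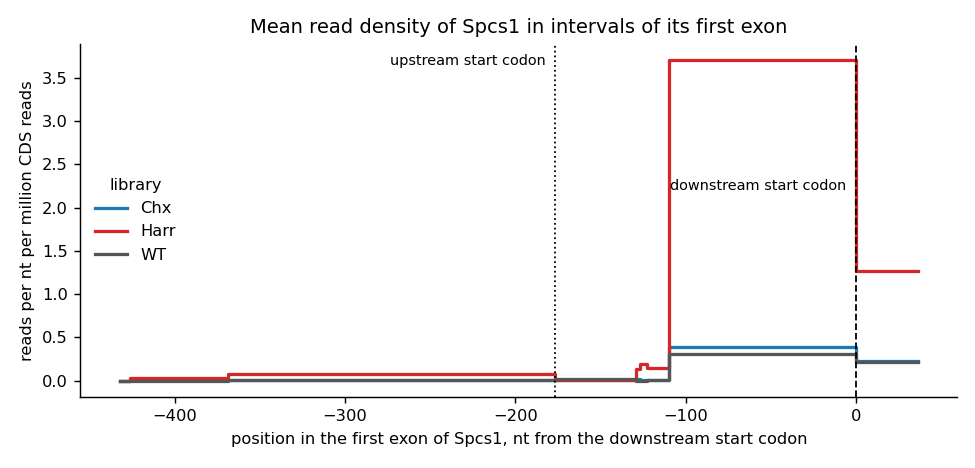
Mean read density in intervals of the first exon of Spcs1, in reads per nt per 1000000 CDS reads, against the distance in nt from the downstream start codon (dashed line); the dotted line marks the upstream start codon 177 nt before it. In all 3 libraries the density is highest in the 110 nt before the downstream start codon, at 3.71 in Harr, and low around the upstream one.

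Of the 5 protein-coding Spcs1 transcripts, 3 are annotated from the upstream start codon and 2 from the downstream one. On the shortest coding CDS (ENSMUST00000228736.1; 123-nt 5′ UTR, 309-nt CDS, downstream start) the window belongs to the 5′ UTR, and this transcript was added as an alternative after the data were seen. It had 866, 1545 and 578 5′ UTR reads and 806, 223 and 862 CDS reads. Its 5′ UTR:CDS log2 odds ratio rose to 2.69 ± 0.13 with Harr set against Chx and to 3.37 ± 0.13 against WT. The CDS level then differed by 0.57 ± 0.11 between Harr and Chx. The same choice moves the 3′ UTR: the longest transcript stops early, so that 242, 45 and 414 of its 3′ UTR reads include those of the last coding exon of the other transcripts, while the shortest coding CDS is followed by 8, 26 and 84 3′ UTR reads. The intervals before the upstream and the downstream start codon are separate. Within an interval, a read of a ribosome at a start codon cannot be told from any other read.

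The CDS of Sec11c and Sec61b was read less in Harr than in Chx, and that of Srp68 more, by less than 1 on the log2 scale. The ratio was taken per 1000000 CDS reads for genes with at least 100 CDS reads in all. Between Harr and Chx, 1 of the 10 genes was higher by at least 1 on the log2 scale (4.63% of 11448 genes) and 2 were lower (14%). The gene higher was Spcs1, and the genes lower were Sec11c at −1.57 ± 0.20 and Sec61b at −1.003 ± 0.12. Sec61b fell short of 1 without overlapping segments (−0.997), with a pseudocount of 5 (−0.96) and with median-of-ratios scaling (−0.95). After the median of the CDS length class was subtracted, neither gene passed 1 (Sec11c −0.89, Sec61b −0.32). Spcs2 lay just short of the limit at −0.997 ± 0.11, and Spcs3 at −0.95 ± 0.18 and Sec11a at −0.63 ± 0.14 were lower by less. Genes with a CDS under 600 nt had a median of −0.68 and those of 600 to 1200 nt −0.54. Srp68 was at 0.65 ± 0.06, Srp72 at 0.25 ± 0.07, Srp19 at 0.25 ± 0.23 and Sec61a1 at −0.28 ± 0.05. Against WT, Harr was higher in Spcs1 and Srp19, 2 of the 10 (5.29%; Srp19 at 1.58 ± 0.27 on the longest transcript but 0.06 ± 0.14 on its most-read one, where the call was lost), and lower in Spcs2, Sec11c and Sec61b, 3 of the 10 (14.7%).

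These ratios depend on the total used. With the header totals in place of CDS reads, the median of all genes moved from −0.05 to −0.60 for Harr against Chx and from 0.00 to −0.51 against WT, and 5 of the 10 genes were then lower by at least 1 in both comparisons, where 31.4% and 29.1% of all genes were.

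In the 3 genes with a CDS over 1200 nt, the ratio of Harr to Chx was higher late in the CDS than early. The position ranges were chosen after the values were seen. For CDS segments with midpoints under 600 nt from the start codon, it was −0.32 ± 0.15 in Srp68, −0.96 ± 0.16 in Srp72 and −1.24 ± 0.09 in Sec61a1. For 600 to 1200 nt it was 0.46 ± 0.12, −0.44 ± 0.16 and −0.12 ± 0.08. Beyond 1200 nt it was 1.32 ± 0.09, 1.33 ± 0.09 and 1.57 ± 0.10. Over 4916 genes with such a CDS the medians were −0.56, −0.27 and 0.95. The 3 genes thus went in the order that all genes of this length showed.

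In Srp68 and Srp72 the first segment stood above the next. In Srp68 the first 181 nt of CDS held 117 (Chx), 65 (Harr) and 80 (WT) reads, a log2 ratio of Harr to Chx of 1.58 ± 0.22, and the next 67 nt held 86, 3 and 95. In Srp72 the first 109 nt had 193, 47 and 133 reads, with 0.39 ± 0.23, and the next 121 nt had 234, 12 and 204, with −1.81 ± 0.42. The share of CDS reads in the first segment, as a log2 odds ratio against the rest, was at least 1 higher in Harr than in Chx for 4 of the 8 genes with enough reads (32.8% of 8789 genes), Spcs1, Srp19, Sec11a and Srp68, the last at 1.00 ± 0.23. Spcs2 (−0.38 ± 0.50), Sec11c (0.06 ± 0.49), Spcs3 (0.11 ± 0.36) and Srp72 (0.16 ± 0.24) had intervals that included 0, and Sec61a1 and Sec61b had too few reads in their first segments. The same 4 genes were higher by at least 1 in Harr than in WT (40.8%). Between Chx and WT none of the 8 was on the longest transcripts (14.1%), where Sec11a was highest at 0.94 ± 0.20, but Srp19 on its most-read transcript was at 1.46 ± 0.27.

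**Figure D4:**
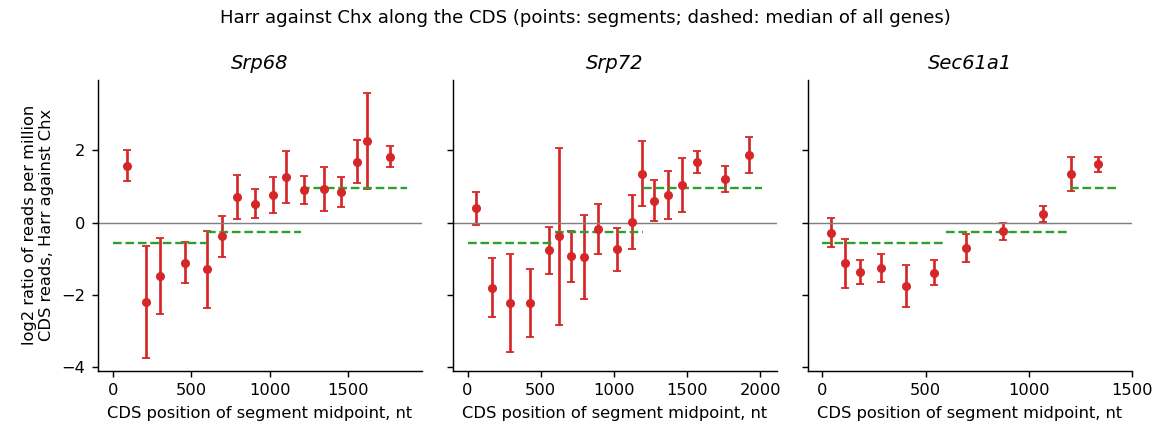
Log2 ratio of reads per 1000000 CDS reads, Harr against Chx, for each CDS segment with at least 10 reads of Srp68, Srp72 and Sec61a1, against the CDS position of the segment midpoint in nt; error bars are 95% counting intervals and dashed lines are medians over 4916 genes in 3 position ranges. In each gene the segments beyond 1200 nt lie above 0.5 and those between 100 and 600 nt lie below −0.5.

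On the longest transcripts, Srp19 was the gene whose CDS level differed most between Chx and WT. Its longest transcript (ENSMUST00000142010.1, chromosome 18) is annotated as a target of nonsense-mediated decay with a CDS of only 123 nt, and on it the CDS held 209 (Chx), 46 (Harr) and 68 (WT) reads. The CDS level was 1.33 ± 0.20 higher in Chx than in WT, the only one of the 10 past 1 (0.192% of 11448 genes), and none of the 10 was lower by 1 (0.122%). On the most-read transcript (ENSMUST00000072576.9, 435-nt CDS) the CDS held 757, 125 and 529 reads and the difference was 0.24 ± 0.08, smaller in size than those of Sec61b (−0.33), Spcs2 (−0.31) and Sec11c (0.29).

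Along the most-read transcript Chx exceeded WT at the start but not in the last 2 segments. The 74-nt 5′ UTR held 257 (Chx), 149 (Harr) and 39 (WT) reads, 2.43 ± 0.25 higher in Chx than in WT on the log2 scale. The first CDS segment held 137, 41 and 39, with 1.52 ± 0.26, and the second 72, 5 and 29, with 1.02 ± 0.32. The third held 187, 49 and 108, with 0.51 ± 0.17. The fourth, with 213, 15 and 213, and the fifth, with 148, 15 and 140, were at −0.28 ± 0.14 and −0.20 ± 0.17. The 5′ UTR and first segment together against the rest of the CDS gave a log2 odds ratio of 1.99 ± 0.20 between Chx and WT, at the 96.9th percentile of 10968 genes, of which 20.5% were at least 1 higher. This measure was chosen after the values were seen. On it 3 of the 10 genes were past 1, the others being Sec61a1 at 1.41 ± 0.28 and Spcs2 at 1.02 ± 0.18.

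**Figure D5:**
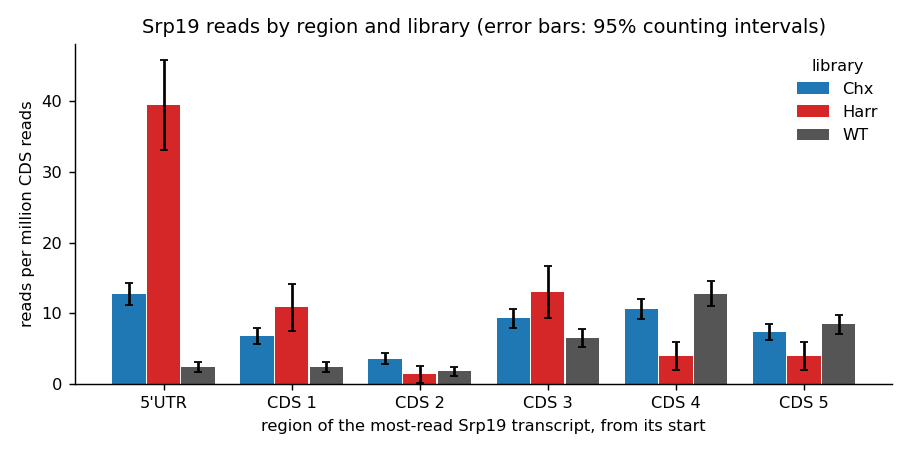
Srp19 reads per 1000000 CDS reads in the 5′ UTR and the 5 CDS segments of its most-read transcript, by library; error bars are 95% counting intervals. Chx lies above WT in the 5′ UTR and the first 3 CDS segments and not in the last 2. Harr lies above both other libraries in the 5′ UTR and in CDS segments 1 and 3.

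The 3′ UTR of most of the genes also took a larger share of reads after harringtonine. Between Harr and Chx the 3′ UTR:CDS log2 odds ratio was at least 1 in 7 of the 9 genes with enough reads (88.9% of 5211 genes) and at most −1 in 1, Spcs1 (1.78%). Here too the CDS count of Spcs1 in Harr, on which the group was picked, is the denominator. Against WT, Harr was higher in 7 (84%) and lower in Spcs1 and Srp19, 2 of 9 (2.45%). Between Chx and WT none was higher (1.98%) and 7 of 8 were lower (47.8%). Without UTR segments that overlap a CDS, 4 of the 5 genes left were lower, and with no read minimum Srp72 was higher at 1.02 ± 1.41. On the most-read transcripts all 9 were higher by at least 1 in Harr than in Chx (89.7% of 5178 genes), Spcs1 at 1.57 and Srp19 at 3.78. Against WT, Spcs1 was at −1.96 ± 0.33 on its most-read transcript but turned to 0.28 on its shortest coding CDS, and Srp19 turned to 2.42 ± 0.43 on its most-read transcript.

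Sec61a1 had the most 3′ UTR reads of the genes in Harr, with 10 (Chx), 277 (Harr) and 56 (WT) in 1528 nt. Of these, 9, 273 and 50 lay in the 306 nt that follow the CDS. The log2 odds ratio against the CDS was 7.42 ± 0.46 between Harr and Chx, and 4.64 ± 0.22 with WT in place of Chx. Spcs2 and Sec11c had 1 3′ UTR read each in Chx against 15 and 13 in Harr, giving 6.79 and 7.16 with counting intervals of 4.36 to 9.22 and 4.70 to 9.63. Srp72 had 3, 3 and 1 reads, too few for a comparison.

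The other genes of the pathway were taken from 8 lists of 72 genes in all, each of which was found in the tables (Srpra and Hm13 under their older symbols Srpr and H13). Of the 69 with enough reads, 66 had a 5′ UTR:CDS log2 odds ratio of at least 1 between Harr and Chx and none was at or below −1, where 92.1% and 0.289% of all genes were. Their median was 2.51, close to the 2.46 of all genes. The 7 other SRP and receptor genes ranged from 2.20 in Srp54a, a GTPase subunit that binds signal sequences, to 4.45 in Srpr, the receptor α subunit, above Srp19, Srp68 and Srp72. Srp54a, Srp54b and Srp54c, each with a CDS of 1515 nt, count here as separate genes. Sequence shared among them was not looked at, so how surely their reads were assigned is not known. Among 9 translocon partners the range was 1.37 in Sec61g to 3.95 in Ssr2, a translocon-associated protein. The 12 oligosaccharyltransferase genes lay between 1.87 (Rpn1) and 3.73 (Ostc), 10 genes of the ER membrane protein complex between 0.52 (Emc1) and 4.10 (Emc2), and 6 multipass translocon partners between 0.21 (Nomo1) and 3.44 (Wdr83os). Tail-anchor insertion genes spanned 1.33 (Wrb) to 3.93 (Caml) over 6 genes, and 15 targets of the unfolded protein response 1.23 (Pdia4) to 3.25 (Calr). Among the 4 signal peptide peptidase genes, Sppl2b was at −0.95 ± 0.37 (0.99 on its most-read transcript) and Sppl3 at 3.10.

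Of the 71 pathway genes with enough CDS reads, 3 were higher by at least 1 between Harr and Chx and 7 were lower, where 4.63% and 14% of all genes were. The genes higher were Nomo1 (1.07) and, among the targets of the unfolded protein response, the transcription factor Xbp1 (1.24) and the disulfide isomerase Pdia4 (1.01). Spcs1 was at 2.72 on its longest transcript, above them, and at 0.57 on its shortest coding CDS, below them. The lowest were Mmgt1 (−1.63), Get4 (−1.20) and Ssr2 (−1.19). Between Chx and WT none of the 71 passed 1 in size, as few genes did (0.192% higher and 0.122% lower). The values ran from −0.50 in Wdr83os to 0.86 in Srp14, which forms a subcomplex of the SRP with Srp9.

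The genes whose CDS levels over the 3 libraries were nearest to those of Spcs1, by Euclidean distance on centred log2 values among 6364 genes with at least 1000 CDS reads, were Macf1 (distance 0.739), Psmd2 (0.757) and Rfng (0.766). Their log2 ratios of Harr to Chx were 2.17, 1.69 and 1.68, against 2.72 for Spcs1 on the same longest-transcript basis. In Macf1, with a CDS of 22068 nt, the first segment held 5.11% (Chx), 2.78% (Harr) and 3.44% (WT) of the CDS reads. In Rfng it held 22.9%, 30.1% and 12.2%. For Psmd2 the longest transcript has a CDS of 183 nt, and its first segment held 99.2% (Chx), 100% (Harr) and 99.0% (WT) of the CDS reads, so this share had no room to differ between libraries. Nearest to Srp19 on its longest transcript, among 11448 genes with at least 100 CDS reads, were Bcl7c (0.178), Uxs1 (0.236) and Iqcf5 (0.247), with 84, 384 and 92 CDS reads in Chx. Likeness over 3 libraries rests on 3 values a gene.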

How the data were processed

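Ribosome profiling was done on 3 libraries of mouse primary cortical neurons, 1 each for Chx, Harr and WT. There are 9 tables from the authors, for the 5′ UTR, CDS and 3′ UTR of each library, written by Plastid with 1 line per exon segment of a transcript. The deposited counts are raw reads per segment, which per the file headers were assigned at the read's 5′ end with an offset of 0, for reads of 25 to 100 nt aligned to mm10. Ribosomal and duplicate reads had been taken out. The deposited coverage signal is that count per nucleotide. Deposited RPKM values scale it by segment length and by the total in the header. Only counts were used. The study's methods give Rsubread mapping to mm10 for Plastid counts of its labelled ribosome profiling, and TopHat alignment to the transcriptome, keeping reads with several matches, for its search for open reading frames. Which of them made these tables is not stated.

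Transcript identifiers were joined to GENCODE M21 (99.1% of 142446 matched with version). For each gene the longest transcript with all 3 regions was used and, apart, the one with the most reads. Log2 ratios had 0.5 added to each count. Standard errors came from the counts, intervals of levels were exact Poisson 95% intervals, and both cover counting error only. Past the fold means at least 1 in size on the log2 scale. With 1 library per treatment no p-value is given. At these depths 3 counts correspond to 0.0840 (Chx), 0.308 (Harr) and 0.0993 (WT) reads per 1000000 aligned reads. The measures were tested on simulated data. Python 3.11.15, pandas 2.3.3 and SciPy 1.17.1 were used.

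The 10 genes and the pathway lists were chosen with earlier results of these data known. Named from the lists were the genes with the highest and lowest value of a measure, some of which are left out here, and for Spcs1 and Srp19 the 3 genes with the nearest CDS levels. Alternatives were the transcript, pseudocount, read minimum, scaling, length class, overlap filters and leaving out the first CDS segment. Groups were taken from the recorded treatment, since the free-text descriptions name fractions of another experiment. Sequences of genes on chromosome 18 are not printed.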

Additional observations from a re-analysis of the deposited data

How the results depend on the processing

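Of the counts over the 10 genes recomputed under an alternative, 141 stayed within 1.5 times the reported count and 30 did not. The counts of genes with a higher 5′ UTR:CDS ratio did so under every alternative run. For the 3′ UTR:CDS ratio, requiring 50 reads per region left 1 gene of 3 higher between Harr and Chx, and 3 of 5 with WT in place of Chx. The count of genes lower between Harr and Chx became 0 on most-read transcripts, without UTR segments that overlap a CDS, and with Spcs1 on its shortest coding CDS; between Harr and WT these gave 1, 0 and 1. Between Chx and WT, 1 gene was higher with no read minimum and 4 were lower without overlapping UTR segments. The value of Spcs1 between Harr and Chx reversed to 1.57 on its most-read transcript and 3.49 on the shortest coding CDS, and that against WT to 0.28 on the latter. That of Srp19 between Harr and WT reversed to 2.42 on its most-read transcript.

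For the CDS level, leaving out the first segment gave 0 genes higher and 4 lower for Harr against Chx, and 0 and 5 against WT. It reversed Spcs1 to −1.19 and −1.45 and Srp19 between Harr and WT to −0.25. Spcs1 on its shortest coding CDS left 0 higher in Harr than in Chx and 1 higher than in WT. The count lower between Harr and Chx was 1 without overlapping segments, with a pseudocount of 5 or with median-of-ratios scaling, Sec61b being the gene lost. Header totals gave 5 lower in both comparisons, and subtracting the median of the length class gave 0 in both. Most-read transcripts, or at least 1000 CDS reads, gave 1 higher between Harr and WT and 0 between Chx and WT. For the share in the first segment, most-read transcripts, or every protein-coding transcript, gave 1 gene higher between Chx and WT, on most-read transcripts Srp19. In the order of WT levels, 5 neighbours overlapped on most-read transcripts and 3 on the longest. The cause was not tested beyond what each alternative's construction shows.

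No paired analysis was possible because each treatment has 1 library. Harr was the shallowest library. Few reads limit the 5′ UTR ratio of Srp72 (± 0.74 between Harr and Chx), which had 6 5′ UTR reads in Harr.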
